A study of Mus musculus with 15 samples.

Results

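These data describe 95 exon junctions in 86 mouse genes whose signal was much lower in wild-type B cells cultured with lipopolysaccharide (LPS) than in resting B cells, while the exon regions of the same gene, as their median, read about the same. An exon junction is the seam between 2 exons of a spliced RNA, and the array has probes that lie across many such seams. A junction was taken if its mean over the 4 wild-type (WT) arrays with LPS was at least 2 log2 units below the mean over the 4 WT arrays without LPS, and if the latter reached 8. Its gene had to have a change between -0.5 and 0.5 over the same arrays and a mean of at least 8 over all 15 arrays, the value of a gene in an array being the median of its exon regions. Of 241345 junctions with 1 gene symbol, 18461 in 1922 genes met the requirements on level and gene, and 95 of these (0.515%) also met the requirement on the change. The WT change therefore chose the junctions and is given only as a description, whereas the change of the junction in ELL2 cko cells was not used and could be tested.

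The arrays measured RNA from splenic B cells of C57BL/6 mice, purified on magnetic (MACS) columns. The groups were WT cells processed at once (4 arrays), WT cells cultured with LPS for 72 hours (4 arrays), ELL2 -/- cko cells processed at once (4 arrays), and ELL2 -/- cko cells cultured with LPS for 72 hours (3 arrays). ELL2 cko cells come from mice with a conditional knockout of Ell2; the labels name neither the Cre driver nor the age of the mice. No cells were cultured without LPS, so LPS and time in culture cannot be told apart, and "with LPS" means both.

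LPS, a component of the bacterial cell wall, drives splenic B cells into division and towards antibody secretion. ELL2 is an elongation factor of RNA polymerase II that is induced on this path and is known to steer the immunoglobulin heavy chain RNA towards its secreted form. A gene can keep the amount of its RNA and still change which exons are joined, by skipping an exon, using another splice site, or using another start or end; a junction probe then loses signal while most exon probes do not. The level of one row of the array cannot be compared with that of another row, because each set of probes binds with its own strength, so only differences between arrays of the same row are used.

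Without LPS the means of the 95 junctions in WT cells ran from 8.02 to 17.38 on the log2 scale, and with LPS from 4.90 to 14.58. The changes ran from -4.12 to -2.0001 (the limit being -2) with a median of -2.40. Measured against the value of the gene in the same array, a difference called the splicing index, the median change was -2.32. With LPS 34 of the 95 junctions read below 8, the level that was required without LPS. In 81 junctions all WT arrays with LPS lay below all WT arrays without it, against 5.95% of the 18461 junctions that met the same requirements on level and gene; this is the contrast that chose them.

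**Figure D1:**
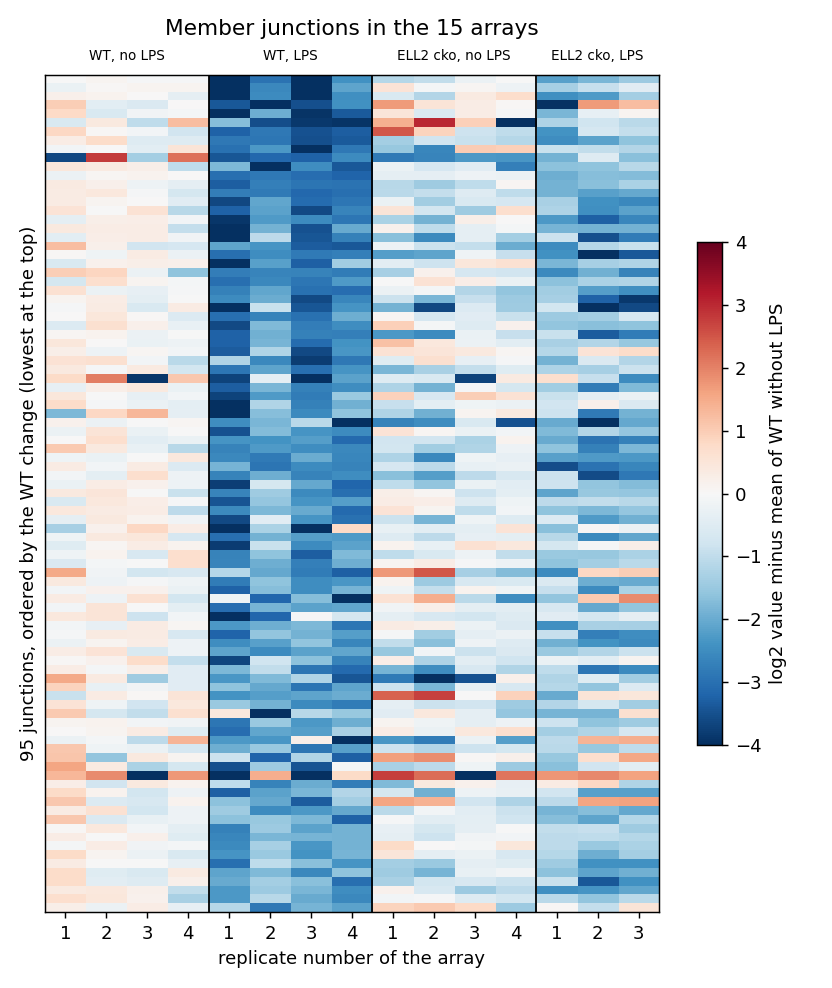
Log2 value of each of the 95 junctions minus its mean in WT arrays without LPS (colour), in rows ordered by the WT change, for the 15 arrays in columns grouped by genotype and treatment. The block of WT arrays with LPS is blue by construction; the ELL2 cko arrays with LPS are mostly a paler blue, with single junctions in red.

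The junctions with the lowest WT changes are described first. The lowest belonged to Mtor, the kinase that couples nutrients and growth signals to protein synthesis (JUC0400008253.mm.1). It read 14.27, 14.40, 14.24 and 14.25 in WT cells without LPS and 8.24, 11.34, 9.20 and 11.88 with LPS. The WT groups did not overlap, and arrays 1 and 3 with LPS were well below arrays 2 and 4. In ELL2 cko cells the junction read 13.15, 13.30, 14.04 and 14.26 without LPS and 12.13, 12.45 and 12.82 with LPS, a change of -1.22 ± 0.66 (SE, n = 4 and 3) that did not pass the test (limma, adjusted p = 0.348). The 63 exon regions of Mtor together gave a change of 0.33 in WT and 0.08 in ELL2 cko. Only 8 of its 35 junctions that reached 8 in WT cells without LPS were lower with LPS at all, and the median change of the others was 0.47.

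Bloc1s1 encodes a subunit of the BLOC-1 complex of lysosome-related organelles. Its junction JUC1000013160.mm.1 read 14.36, 14.31, 14.19 and 13.82 in WT cells without LPS and 9.37, 11.64, 10.12 and 11.73 with LPS. In ELL2 cko cells it read 13.55, 13.01, 14.52 and 14.86 without LPS and 11.71, 11.89 and 12.80 with LPS. All arrays with LPS lay below all arrays without it in both genotypes, although the ELL2 cko change of -1.85 ± 0.56 (SE) missed the threshold (limma, adjusted p = 0.0762). The 3 other junctions of Bloc1s1 at that level had WT changes of 1.51, -0.48 and 1.66, so the junctions of this gene went both ways.

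For Sgk3, a kinase downstream of PI 3-kinase, the ELL2 cko arrays without LPS disagreed among themselves. They read 11.71, 13.31, 11.26 and 6.25, and the arrays with LPS 9.06, 9.49 and 9.22, so the change of -1.38 (limma, adjusted p = 0.600) rests on groups that overlap. Nisch, which encodes the scaffold nischarin, read 4.38 in array 1 of ELL2 cko with LPS and 10.04 and 9.57 in arrays 2 and 3. Without LPS the ELL2 cko arrays read 10.04, 8.84, 8.63 and 8.36. Arrays 2 and 3 with LPS and arrays 1 and 2 without LPS carried T cell markers, described with the markers of other cells. Without those 4 arrays the ELL2 cko change was -4.12 for Nisch and 0.30 for Sgk3, with 1 array with LPS left. The junctions of Mto1, an enzyme of mitochondrial tRNA modification, and of Tmem104 had WT changes of -3.22 and -3.16. Their ELL2 cko changes were -1.71 and -1.04, and neither passed the test (limma, adjusted p = 0.192 and 0.0868). The junction of Myo5a, the vesicle motor myosin Va, had a WT change of -3.12 and an ELL2 cko change of -0.48 (limma, adjusted p = 0.793).

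The same junctions were then read in the ELL2 cko arrays. The mean with LPS was below the mean without LPS in 83 of the 95 junctions, against 37.9% of the 18366 other junctions that met the requirements on level and gene. It was lower by 1 log2 unit or more in 50 of the 95, against 2.93% of the others. The median change was -1.03, with the middle of the distribution between -1.39 and -0.51 (quartiles), against 0.19 for the other junctions and 0.07 for all junctions with 1 symbol. In 38 junctions all 3 arrays with LPS lay below all 4 without it, against 5.76% of all junctions and 3.91% of the others. The 95 junctions are not independent, since some lie in 1 gene and all come from the same 7 RNA samples, so these counts describe the set.

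Row by row, 19 of the 95 junctions, in 19 genes, fell with LPS in ELL2 cko cells, by limma over all 719071 exon region and junction rows at an adjusted p under 0.05. Over all those rows 2.24% were called lower, over all junctions with 1 symbol 1.74%, and over the other junctions of the same level and gene requirements 0.74%. None was called higher by limma, against 2.55% of all rows, and 1 was higher at an unadjusted p under 0.05. The called changes ran from -2.48 to -1.14, and in all 19 the arrays with and without LPS did not overlap. At an unadjusted p under 0.05, 48 of the 95 were lower, against 7.97% of all junctions. With the splicing index, which takes out a change of the gene as a whole, 83 junctions had a lower mean with LPS and the median change was -0.99, against 0.16 for the other junctions. The splicing index of 11 junctions fell (limma over 241309 junctions, adjusted p under 0.05), against 0.428% of all junctions, and 7 of the 11 were among the 19 above. None was called higher by this test, against 0.588% of all junctions, and 1 was higher at an unadjusted p under 0.05; 45 were lower at that level, against 5.29% of all junctions. The count of 19 depended on single arrays: it was 7 without array 2 or array 3 of ELL2 cko with LPS. It was 12 without array 1 or array 4 of ELL2 cko without LPS, and 10 when the fit held only the ELL2 cko arrays. Calls fell over all rows too. The share of all rows called lower was 1% or 1.15%, 1.78% or 1.6%, and 0.878% in these settings, in the same order. The count of 11 for the splicing index was 3 without array 2 or array 3 with LPS. It was 5 without array 1 or array 3 without LPS and 4 without array 4 without LPS. With only the ELL2 cko arrays it was 0 (43 at an unadjusted p under 0.05). The share of all junctions was 0.146% or 0.153%, 0.248% or 0.351%, 0.272%, and 0.0974% in these settings, in the same order.

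**Figure D2:**
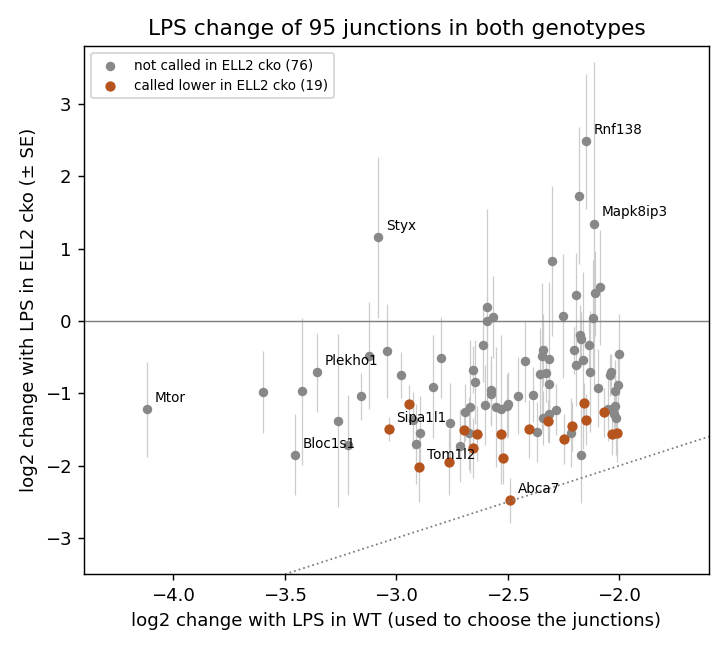
Log2 change with LPS in ELL2 cko (y axis, ± SE from limma) against the change in WT (x axis, the values that chose the junctions) for the 95 junctions; the dotted line marks equal changes. Most points lie between the dotted line and 0, the 19 called junctions (orange) between -2.48 and -1.14, and the 12 junctions above 0 are all uncalled.

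The junction that fell most in ELL2 cko cells lay in Abca7 (JUC1000003349.mm.1), which encodes a lipid transporter of the ABC family that also acts in phagocytosis. It read 10.53, 10.14, 10.91 and 10.95 without LPS and 7.65, 8.24 and 8.57 with LPS, a change of -2.48 ± 0.32 (SE; limma, adjusted p = 0.000538). In WT cells it read 11.52, 11.08, 11.52 and 10.66 without LPS and 9.33, 8.27, 8.69 and 8.52 with LPS. The groups were separate in both genotypes, and the WT change was -2.49. The 51 exon regions of Abca7 together gave a change of 0.11 in WT and of -0.07 in ELL2 cko, and the splicing index fell by 2.41 (limma, adjusted p = 0.00931).

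Sipa1l1, which encodes an activator of the GTPase activity of Rap, had the smallest adjusted p of the set and is named after its values were seen. Its junction JUC1200003095.mm.1 read 14.05, 14.05, 14.20 and 14.17 in ELL2 cko cells without LPS and 12.46, 12.72 and 12.68 with LPS, a change of -1.50 ± 0.16 (SE; limma, adjusted p = 0.000179). In WT cells it read 14.19, 14.49, 14.54 and 14.43 without LPS and 11.41, 11.55, 11.37 and 11.20 with LPS. Arrays of each group lay close together, no array with LPS overlapped one without it, and the ELL2 cko arrays with LPS lay between the WT arrays with LPS and the arrays without it. The splicing index fell by 1.73 (limma, adjusted p = 0.0240).

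Of the other called junctions, that of Tom1l2, an endosomal adaptor protein, read 15.77, 15.16, 17.28 and 17.07 in ELL2 cko cells without LPS and 14.73, 13.77 and 14.42 with LPS, a change of -2.01 ± 0.49 (SE; limma, adjusted p = 0.0300). ELL2 cko arrays 1 and 2 without LPS were the lower ones. Dnajc5 encodes cysteine string protein, a chaperone of vesicle release, and its junction changed by -1.63 ± 0.34 (SE; limma, adjusted p = 0.0135). Tbc1d9, a protein with a Rab GAP domain, had a junction that changed by -1.89 ± 0.36 (SE; limma, adjusted p = 0.00748). Herc1, a giant ubiquitin ligase measured with 94 exon regions, had a junction that read 13.93, 12.89, 12.47 and 13.15 without LPS and 11.40, 11.31 and 11.36 with LPS in ELL2 cko cells, a change of -1.75 ± 0.41 (SE; limma, adjusted p = 0.0252).

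The remaining called junctions named by the rule lay in genes of varied function. In Ints1, the scaffold of the Integrator complex that cleaves nascent RNA, the junction read 9.01, 9.10, 11.06 and 10.30 without LPS and 8.81, 7.11 and 7.84 with LPS, a change of -1.95 ± 0.46 (SE; limma, adjusted p = 0.0262). Ctdsp2, a phosphatase of the RNA polymerase II tail, changed by -1.56 ± 0.35 at its junction (SE; limma, adjusted p = 0.0196), but its exon regions together gave -1.18 in ELL2 cko cells and the splicing index -0.38 (limma, adjusted p = 0.771). Ppard, the nuclear receptor PPAR delta, was the opposite case. Its junction read 11.46, 10.72, 10.64 and 11.15 without LPS and 9.65, 9.21 and 9.43 with LPS (-1.56 ± 0.28, SE; limma, adjusted p = 0.00593), while its exon regions together gave 0.60 and the splicing index changed by -2.16 (limma, adjusted p = 0.0190). The junction of Kdm4a, a histone demethylase, changed by -1.14 ± 0.29 (SE; limma, adjusted p = 0.0360). Cep295, a centriole protein, and Csnk1d, casein kinase 1 delta, changed by -1.56 ± 0.38 and -1.55 ± 0.40 at their junctions (SE; limma, adjusted p = 0.0319 and 0.0391).

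**Figure D3:**
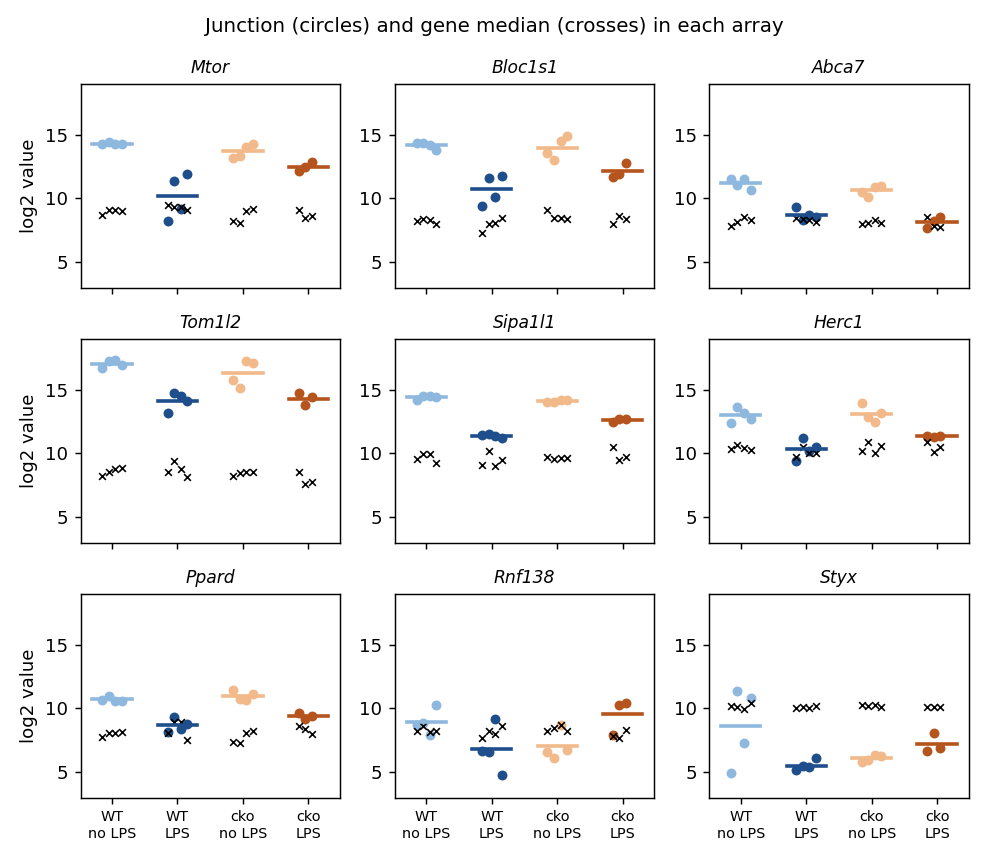
Log2 value of the junction (coloured circles, 1 per array, with a line at the group mean) and of the gene as the median of its exon regions (black crosses) for 9 genes in the 4 groups. In Abca7, Sipa1l1, Tom1l2, Herc1 and Ppard the circles with LPS lie below those without LPS in both genotypes while the crosses differ less; in Rnf138 and Styx the ELL2 cko circles with LPS lie higher on average.

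The other 12 junctions had a higher mean with LPS in ELL2 cko cells, and none passed the test. Of the 14 junctions whose WT groups overlapped, 9 were among these 12, whereas 78 of the 81 junctions with separate WT groups were lower in ELL2 cko cells. The most positive change was that of Rnf138, a ubiquitin ligase of DNA repair. Its junction read 8.72, 8.85, 7.89 and 10.30 in WT cells without LPS and 6.63, 6.61, 9.18 and 4.75 with LPS. In ELL2 cko cells it read 6.62, 6.14, 8.72 and 6.73 without LPS and 7.91, 10.29 and 10.40 with LPS, a change of 2.48 ± 0.93 (SE; limma, adjusted p = 0.159). Arrays with and without LPS overlapped in both genotypes. Nol11, a factor of ribosome biogenesis, had a change of 1.73 (limma, adjusted p = 0.360) and Stambpl1, a deubiquitinase, one of 0.83 (limma, adjusted p = 0.737). Without the 4 ELL2 cko arrays with T cell markers 1 array with LPS was left, and the changes of the 12 moved in both directions. They were smaller for Rnf138 (0.19), Nol11 (0.46) and Stambpl1 (0.19). They were larger for Mapk8ip3 (3.43 against 1.34) and Cramp1l (2.35 against 0.19), whose arrays are described next. Of the 12, 3 had a lower mean with LPS there.

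Some members rested on a few WT arrays. The junction of Styx, a pseudophosphatase, read 4.96, 11.39, 7.26 and 10.82 in WT cells without LPS and 5.17, 5.47, 5.38 and 6.08 with LPS, so that 1 array without LPS was below all arrays with it. In ELL2 cko cells it read 5.77, 5.98, 6.32 and 6.29 without LPS and 6.70, 8.10 and 6.93 with LPS, and it was the only one of the 95 whose ELL2 cko arrays with LPS all lay above those without it (1.15 ± 1.11, SE; limma, adjusted p = 0.644). The junction of Mapk8ip3, the kinase scaffold JIP3, split the 15 arrays in another way. It lay between 6.20 and 7.20 in 4 arrays and between 12.82 and 14.81 in the other 11. The 4 were array 3 of WT without LPS, arrays 1 and 3 of WT with LPS and array 3 of ELL2 cko without LPS, so the low values did not follow LPS. Cramp1l, another member, lies near Mapk8ip3 with only Jpt2 between them in the RefSeq gene order; its junction read 5.87, 6.05, 5.66 and 6.06 in those 4 arrays and 7.24 to 11.81 in the others.

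Of the 86 genes 79 held 1 of the junctions and 7 held several. Plekho1, which encodes a PH-domain protein, and Zfp207, which encodes the kinetochore and spliceosome-associated protein BuGZ, held 3 each. Sh3bgrl3, Vti1a, Qtrt2, Tnfrsf14 and Phf20 held 2 each. In Tnfrsf14, the receptor HVEM that restrains or stimulates lymphocytes through BTLA and LIGHT, the junction JUC0400017993.mm.1 read 9.96, 10.57, 10.25 and 9.72 in ELL2 cko cells without LPS and 8.35, 8.72 and 8.79 with LPS. It fell by 1.50 ± 0.31 (SE; limma, adjusted p = 0.0116), while the other junction of the gene gave -1.02 (limma, adjusted p = 0.151). Tnfrsf14 reached the required gene level through the 4 ELL2 cko arrays with T cell markers, described with the markers of other cells: its exon regions together read 9.48 to 9.97 there and 7.28 to 8.21 in the other 11 arrays, whose mean was 7.58. Over those 11 arrays Vti1a too was just short of the level, at 7.99; without both genes 18 of the 19 called junctions are left. In Qtrt2, a subunit of the enzyme that puts queuine into tRNA, 1 junction fell by 1.14 ± 0.26 (SE; limma, adjusted p = 0.0204) and the other gave -0.51 (limma, adjusted p = 0.695). In Phf20, a chromatin reader, 1 junction fell by 1.49 ± 0.40 (SE; limma, adjusted p = 0.0485) and the other gave -1.53 (limma, adjusted p = 0.0517). Neither junction of Vti1a, a SNARE of Golgi and endosome traffic, passed the test (-0.74 and -1.16; limma, adjusted p = 0.223 and 0.279), nor did the 3 of Zfp207 (-1.18, -0.55 and -0.73).

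The bright exon regions, those reaching 8 in WT cells without LPS, had a median WT change between -0.5 and 0.5 in 76 of the 86 genes, and of -1 or lower in 2, Sh3bgrl3 and Plekho1. Sh3bgrl3, a small protein of thioredoxin fold, was measured with 5 exon regions, of which 3 were lower by at least 2 log2 units in WT cells with LPS. The median change of its bright exon regions was -2.27, although the median value of the gene gave -0.04. Its junctions JUC0400015913.mm.1 and JUC0400015912.mm.1 had WT changes of -3.60 and -2.76 and were its only bright junctions. Plekho1 had 6 of 13 exon regions lower by at least 2, a median change of -2.29 over its bright exon regions, all 4 of its bright junctions lower, and a gene change of -0.06. In these genes more rows than the junctions named here were lower, so the requirement on the gene median did not set the junctions apart from the rest of the RNA. The 3 junctions of Plekho1 had ELL2 cko changes of -0.71, -0.34 and -0.40, none past the test. Without the 4 ELL2 cko arrays with T cell markers these changes were -1.94, -1.36 and -1.23, with 1 array with LPS left. The junctions of Sh3bgrl3 had ELL2 cko changes of -0.98 and -1.41 over all arrays (limma, adjusted p = 0.389 and 0.172). For the latter the splicing index fell by 2.09 (limma, adjusted p = 0.00589). That index is taken from a gene value that gave 0.68 in ELL2 cko cells, where the bright exon regions of Sh3bgrl3 gave a median of -1.07, so this call of the 11 rests on the choice of gene value.

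In most genes the other bright junctions did not share the fall. These counts use the WT contrast that chose the members. The limit on the gene change favours small changes of the other rows, exon regions and junctions alike, so the counts are a description. Over the 86 genes 1178 junctions reached 8 in WT cells without LPS. Of these 630, the members included, were lower with LPS by any amount. The median WT change of the bright junctions other than the members lay between -0.5 and 0.5 in 66 genes. In 8 genes at least 1 bright exon region was lower by 2 or more. In 6 genes, Myo5a, Brd2, Shisa5, Cul1, Dicer1 and Nup205, another junction was higher by 2 or more in WT cells with LPS, where it read at least 8. The mean of that junction over all 15 arrays reached 8 in Shisa5 and Cul1 and not in the other 4 genes. In Shisa5, a membrane protein of the endoplasmic reticulum and nuclear envelope that is known for p53-dependent apoptosis, JUC0900006588.mm.1 had a WT change of -2.32 and JUC0900006590.mm.1 one of 2.31. The former fell by 1.38 in ELL2 cko cells (limma, adjusted p = 0.0140), and the mean of the latter was higher by 1.40. In Cul1, the scaffold of SCF ubiquitin ligases, the member had a change of -2.16 in WT and -0.54 in ELL2 cko (limma, adjusted p = 0.868), and another junction 2.53 and 0.75. The Cul1 member read 12.09, 10.36, 10.06 and 11.71 in WT cells without LPS and 11.49, 4.59, 9.95 and 9.55 with LPS. Its WT groups thus overlapped, and its WT change rested largely on array 2 with LPS. Exon positions were not used here, so it was not tested whether such pairs are alternatives to one another.

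**Figure D4:**
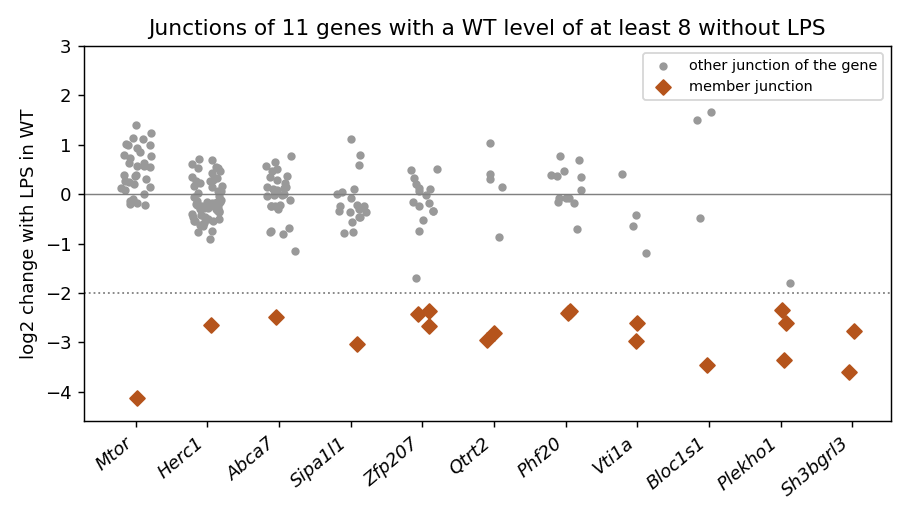
WT log2 change with LPS of every junction with a WT mean of at least 8 without LPS in 11 of the genes; orange diamonds are the members and grey points the other junctions of the gene, with a dotted line at -2. In Mtor, Herc1, Abca7 and Sipa1l1 the member lies far below a cloud of other junctions near 0, whereas in Plekho1 and Sh3bgrl3 no bright junction lies near 0.

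The genes were read against short lists of genes by function. These lists do not hold every gene of a function, so each count covers only the listed genes. Of the 1922 unchanged genes with a junction bright enough to be taken, 4.47% held a member. Among splicing factors and their kinases it was 3 of 29: Nono, Taf15 and Prpf4b. Their ELL2 cko changes were 0.00, 0.07 and -0.46, none past the test (limma, adjusted p = 0.998, 0.981 and 0.731). The WT groups of Taf15 overlapped, at 10.28, 10.36, 9.01 and 9.74 without LPS and 4.75, 6.68, 9.79 and 9.15 with LPS. Prpf4b lay at the limit of the rule, with a WT change of -2.0001. No member was among the 27 listed genes for RNA polymerase II, elongation and 3′ end factors. That list did not hold Ints1 and Ctdsp2, 2 called members described above with roles in nascent RNA and the polymerase tail. None was among the 12 listed immune genes known to be spliced differently on lymphocyte activation. The list of chromatin regulators gave 2 of 37, the bromodomain protein Brd2 and Kdm4a, and did not hold Phf20. B cell receptor and Toll-like receptor signalling gave 1 of 16, Map3k7, the kinase TAK1 that relays Toll-like receptor signals. Its junction read 13.44, 13.13, 13.36 and 12.68 in WT cells without LPS and 10.56, 11.33, 11.31 and 11.27 with LPS, and its ELL2 cko change was -0.71 (limma, adjusted p = 0.138). The list of ubiquitin enzymes gave 3 of 36, Cul1, Herc1 and Rnf138, and did not hold Stambpl1. The vesicle traffic list gave 1 of 24 (Vti1a) and did not hold Tom1l2 or Dnajc5. The list of translation factors gave 1 of 17, the kinase gene Mtor. That of nucleotide, sugar and lipid metabolism enzymes, which did not hold Adsl, gave none of 8. With counts this small the shares are given only as a description.

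The 86 genes were measured with more rows than the other unchanged genes, with a median of 26 exon regions and 19 junctions per gene against 19 and 13. Junctions just inside the limits had values close to those just outside. The WT change was -2.0001 for Prpf4b and -2.005 for Bbip1 inside, and -1.997 for Zfp68 and -1.989 for Ptcd3 outside. On the junction level 2700049A03Rik and Dicer1 were inside at 8.02 each, and Cul4b at 7.97 and a junction of Gapvd1 at 7.82 outside. The gene change was -0.50 for Aplp2 and Mllt10 inside, and 0.50 for U2af1, with 2 junctions outside. The gene level was 8.04 for Mto1 and Pptc7 inside and 7.97 for Pced1a and Clcc1 outside.

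Array by array, the median over the 95 junctions of the difference from the WT mean without LPS was 0.28, 0.15, -0.02 and -0.20 in resting WT cells. With LPS it was -2.88, -1.97, -2.58 and -2.48 in the WT arrays. Resting ELL2 cko cells gave -0.36, -0.70, -0.37 and -0.42, and with LPS they gave -1.40, -1.58 and -1.39. The ELL2 cko arrays with LPS were all below those without it and all above the WT arrays with LPS. Over the 18366 other junctions the same median lay between -0.15 and 0.25 in every array. Side by side, the ELL2 cko mean with LPS was above the WT mean with LPS in 85 of the 95 junctions (median difference 1.03), and without LPS it was below the WT mean in 74 (median difference -0.55). These differences share the WT arrays that chose the junctions, so they are not tested and do not show that the genotypes differ. The median ELL2 cko change was 42.3% of the WT change of the same junction, and 34 junctions reached at least 50%. The WT change in this ratio is the one that chose the junctions. The ratio is therefore a description and does not measure how much of the response ELL2 cko cells kept.

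**Figure D5:**
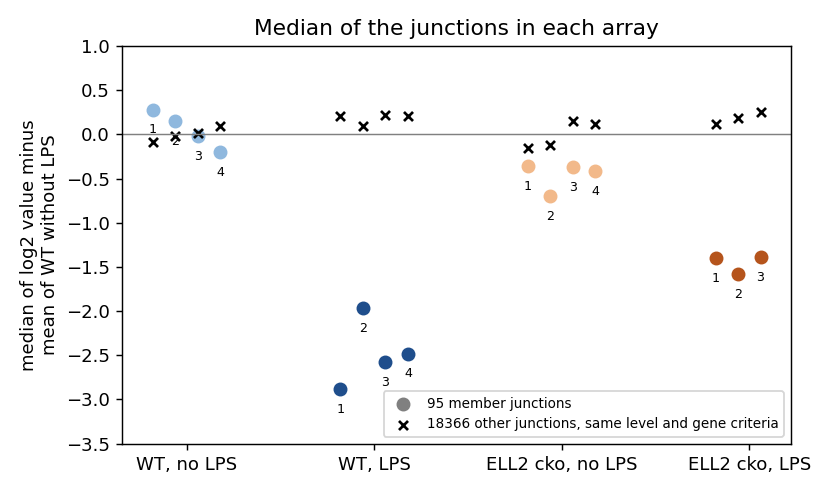
Median over the 95 junctions (coloured circles, labelled with the replicate number) and over the 18366 other junctions of the same level and gene requirements (crosses) of the log2 value minus its mean in WT arrays without LPS, for each array of the 4 groups. The circles lie between -2.88 and -1.97 in WT with LPS and between -1.58 and -1.39 in ELL2 cko with LPS, and the crosses stay between -0.15 and 0.25.

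Markers of cell state and of other cells moved with the groups. The mean of 6 markers of antibody-secreting cells was 15.43, 14.40, 15.49 and 14.60 in WT arrays with LPS, highest in arrays 1 and 3. In those arrays the junctions of Mtor, Bloc1s1 and Sh3bgrl3 were lowest, but those of Mllt10 and Stambpl1 were highest. The part of secreting cells in these values was not tested. The marker mean was 13.27, 12.70 and 12.71 in ELL2 cko arrays with LPS and 8.96 to 10.23 in all arrays without LPS. Xbp1, a transcription factor of secreting cells, read 16.30 to 17.58 in WT and 14.13 to 14.48 in ELL2 cko arrays with LPS. In these bulk samples fewer cells with a junction and less of it per cell cannot be told apart. The gene Ell2 itself, over its exon regions, read 10.87 to 11.10 in WT without LPS, 15.73 to 16.86 in WT with LPS, 9.78 to 11.17 in ELL2 cko without LPS and 14.14 to 14.16 in ELL2 cko with LPS. It was thus higher with LPS in ELL2 cko cells too; the labels do not give the deleted part of the gene, so this value does not check the knockout.

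Of the 7 ELL2 cko arrays 4 had raised levels of T cell markers. The mean of 13 T cell markers was 11.14 and 10.75 in arrays 1 and 2 without LPS and 6.76 and 6.99 in arrays 2 and 3 with LPS, against 4.82 to 5.16 in the other arrays. In the same 2 arrays without LPS 10 neutrophil markers had means of 11.77 and 11.33, against 4.18 to 5.02 elsewhere, and the mean of 7 B cell markers was 13.73 and 13.66 against 15.14 to 15.42 in the other arrays without LPS. In the ELL2 cko group without LPS the mean was higher than in WT by at least 1 for 11 of 13 T cell, 10 of 10 neutrophil, 7 of 8 NK cell and 8 of 9 monocyte and macrophage markers. Of the T cell markers 8 of 13, and of the neutrophil markers 8 of 10, read below the median gene (5.06) in WT cells without LPS. Without the 4 arrays, which leaves 2 ELL2 cko arrays without LPS and 1 with it, 80 of the 95 junctions were still lower with LPS, 44 of them by at least 1, and the median change was -0.92. All 19 called junctions had lower means with LPS there, with changes from -3.28 to -0.55. Most of the 19 lost their call by limma in that fit, and calls fell over all rows too. The single ELL2 cko array with LPS is assumed there to vary like the other groups. Of the 13 called junctions named by the rule, Abca7 kept its call in every setting run. Tbc1d9, Ppard and Tnfrsf14 lost theirs only without the 4 arrays, with changes of -1.44, -1.25 and -1.63 (limma, adjusted p = 0.352, 0.284 and 0.198).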

How the data were processed

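Splenic B cell RNA from mice was measured on arrays with exon region and junction probes, in 15 samples with 1 array each. The deposited values are log2 expression after background correction, normalization and summary by the authors with RMA (SST) in the Affymetrix Expression Console, per the labels and the submitters' processing notes; versions are not given in the sources used here. SST, a signal space transformation, widens differences, so values between arrays are on that transformed scale (1.74 to 19.93). The number of arrays limits the precision. Rows were named from the platform annotation: of 725678 rows 580167 had 1 symbol, 18694 several and 126817 none. Symbols of 3 member genes were updated through RefSeq (Qtrt2, Cep295 and Nsrp1) and 0 were unmatched. All columns matched the labels.

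A limma model (3.58.1, R 4.3.3, data.table, version 1.17.8) with a mean per group was fitted to all 719071 exon region and junction rows. The contrast was ELL2 cko with LPS minus without, two-sided, with Benjamini-Hochberg adjustment over all rows and calls at an adjusted p under 0.05; SE comes from this fit. The same model was fitted to the splicing index of 241309 junctions. The ELL2 cko arrays entered the rule only through the mean level of the gene. Labels say that cells came from each mouse, without saying which samples share one; p-values measure the spread between these samples. The script was tested on simulated data.

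Named were the 10 junctions with the lowest WT change, the 10 largest called falls in ELL2 cko without overlap, the 5 highest ELL2 cko changes, up to 4 members per gene list, the 6 genes with most members, those next to each threshold, and Ell2, without predicted genes in the first 3 sets. Shisa5, Phf20, Cramp1l, Sipa1l1, Nup205 and Jpt2 are named in addition, after their values were seen. The members and lists were chosen with earlier results of these data known. Alternatives were other gene values, thresholds, normalization, centring, filters, variance settings, sample sets and a replicate block. Probe sequences and positions were not used here, and the result of 1 gene list is not reported here.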

Additional observations from a re-analysis of the deposited data

Results flagged for a closer look

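Of 153 groups of 4 arrays examined for the named junctions, 10 held 1 array far from the other 3; chance gives about 1 in 20. In WT cells without LPS, array 3 read 7.09 for the junction of Mapk8ip3 against 13.36 to 13.95, array 4 read 10.73 for Mllt10 against 11.99 to 12.20 and 9.94 for Csnk1d against 11.13 to 11.34. Array 1 of that group read 15.66 for the junction JUC0400015912.mm.1 of Sh3bgrl3 against 16.44 to 16.52, and array 2 read 11.01 for Ppard against 10.57 to 10.63. In WT cells with LPS, array 1 read 8.58 for Sgk3 against 6.38 to 6.75 and 10.56 for Map3k7 against 11.27 to 11.33. In ELL2 cko cells without LPS, array 3 read 6.57 for Mapk8ip3 against 14.19 to 14.81, and array 4 read 9.01 for Mllt10 against 11.10 to 11.48 and 9.15 for Prpf4b against 11.41 to 11.65. The ELL2 cko group with LPS has 3 arrays and was not examined in this way.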

How the results depend on the processing

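Of 95 junctions in 86 genes, 58 in 52 genes were left with a limit of 0.25 on the gene change and 12 in 12 genes with a WT change of -3 or lower. The other settings of the rule gave 66 to 103 junctions, 72 of 99 shared with the members when the gene was the mean of its exon regions, and leaving out 1 WT array in turn gave 83 to 109 junctions in 72 to 98 genes. Requiring the bright exon regions to lie within the limits too, a setting added after seeing the data, gave 81, and taking the gene level without the 4 arrays with T cell markers, also added, gave 92 with 91 shared. The number of junctions called lower in ELL2 cko was 19, and 10, of which 9 were among the 19, when only the ELL2 cko arrays entered the limma fit, where the splicing index gave 0 (43 at an unadjusted p under 0.05) against 11. In that fit 0.878% of all rows were called lower, and 0.0974% of all junctions by the splicing index. Leaving out 1 array in turn gave 7 to 22 calls, with 7 without ELL2 cko array 2 or 3 with LPS and 12 without array 1 or 4 without LPS. The share of all rows called lower ran from 1% to 2.44% when 1 array was left out, against 2.24% in the main fit. The splicing index gave 3 to 13, with 3 without ELL2 cko array 2 or 3 with LPS. It gave 5 without array 1 or 3 without LPS and 4 without array 4 without LPS. Its share of all junctions ran from 0.146% to 0.485%, against 0.428% in the main fit. Correlations of the deviations of same-numbered arrays ran from -0.173 to 0.231. With so few arrays these cannot settle whether numbers pair the samples, and the main fit used no pairing. With the replicate block 19 junctions and 5 by the splicing index were called, against 1.75% of all rows and 0.303% of all junctions. The 4 arrays with T cell markers were chosen after seeing the data. Without them 1 ELL2 cko array with LPS was left, its spread taken from the other groups. Fewer junctions were called there, and calls fell over all rows too. The median splicing index change was -0.859. The median change ran from -1.19 to -0.886 and that of the splicing index from -1.10 to -0.920 when 1 array was left out. No setting called a member higher. Of 13 named called junctions only Abca7 kept its call under every setting run, with adjusted p from 0.000409 to 0.0128, and none turned its direction; Tbc1d9, Ppard and Tnfrsf14 lost theirs only without those 4 arrays, at changes of -1.44, -1.25 and -1.63. Among the named uncalled junctions 12 changed sign somewhere. Without the 4 arrays Sgk3 gave 0.30, Prpf4b 0.36, Zfp207 0.27 and Brd2 -0.57; Nono gave 0.00358 after quantile normalization, 0.00293 after centring and 0.0173 with the replicate block. With 1 array left out the changes ran from -1.17 to 0.0395 for Myo5a, -1.99 to 0.84 for Nisch, -1.35 to 0.18 for Rock1, -0.68 to 0.25 for Plekho1, -0.62 to 2.13 for Mapk8ip3, -0.0799 to 0.98 for Dicer1, -0.0151 to 0.16 for Taf15, -0.24 to 0.25 for Brd2 and -0.23 to 0.22 for Nono. The cause was not tested.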
